A study of Mus musculus with 10 samples.

Results

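A set of genes that are high in naive and lymphoid T cells was followed in regulatory T cells (Tregs) of the mouse. They were taken by name, namely Lef1, Tcf7, Foxp1, Bach2, Klf2, Id3, Satb1, Dapl1 and S1pr1, and all 9 were found among the 55401 gene IDs of the count table. RNA-seq libraries were made from 5 groups of Tregs with 2 libraries each. SP-Tregs were taken from the spleen of untreated mice, and Ischemia-Tregs were isolated from brain tissue 28 days past the onset of a stroke. The iB-Tregs were splenic Tregs kept for 6 days on primary glial cultures, labelled as astrocytes, to ask how close such cells come to Tregs of the brain. Antibodies against CD3 and CD28 (2 μg/ml of either) and IL-2 (20 ng/ml) were given to every iB-Treg group, and iB-Treg (A) received nothing else. IL-33 (20 ng/ml) and serotonin (10 μM) were added for iB-Treg (B), and iB-Treg (C) got CCL1 and CCL20 (both at 20 ng/ml) on top of these. All samples are labelled as strain C57BL/6J, and Tregs came from mice of 8 to 12 weeks that carry human CD2 (hCD2) as a reporter in the Foxp3 locus. For sequencing, hCD2+ cells were isolated on magnetic columns. Whether both libraries of a group stem from different animals or cultures is not given in the sources used here, so the p-values reflect only how far these libraries differ from each other, and that spread may be technical.

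Naive T cells and resting lymphoid Tregs are held in a quiescent, recirculating state by a small set of transcription factors. TCF-1 (the product of Tcf7) and LEF1 are related HMG box proteins that bind DNA with the partner β-catenin or with Groucho/TLE corepressors. FOXP1 is a forkhead factor of T cell quiescence, BACH2 is a repressor that competes with AP-1 factors at effector genes, ID3 is an inhibitor of E proteins, and SATB1 is a chromatin organiser that is needed when Tregs arise in the thymus. KLF2 activates S1pr1, whose product is the sphingosine 1-phosphate receptor that lets T cells leave lymphoid organs. Dapl1 encodes a protein related to Dap and is used as a marker of naive T cells in the mouse. Activated and tissue Tregs are known to lose much of this set.

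Promoter sequences were at hand for 8 of the 9 genes, 18 in all, from RefSeq on the GRCm38.p6 build. The 250 bases before a start site are shown for 4 genes because each stands for one of the patterns described below: Lef1 for a fall in every group, Bach2 for the lowest level in the ischemic brain, Klf2 for the highest level there, and Dapl1 for a near loss in co-culture. They lie on the plus strand, at chr3:131110047-131110296 (Lef1), chr4:32417185-32417434 (Bach2), chr8:72318812-72319061 (Klf2) and chr2:59484403-59484652 (Dapl1). Capitals mark matches on either strand to the TCF/LEF letters TCAAAG, the forkhead letters GTAAACA, the KLF letters CACCC, the E-box letters CANNTG or the AP-1 letters TGANTCA.
Lef1: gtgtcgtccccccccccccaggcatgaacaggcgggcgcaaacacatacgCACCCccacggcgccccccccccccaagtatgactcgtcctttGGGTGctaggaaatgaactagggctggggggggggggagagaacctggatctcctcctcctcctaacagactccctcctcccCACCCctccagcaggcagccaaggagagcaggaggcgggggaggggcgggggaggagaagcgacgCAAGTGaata
Bach2: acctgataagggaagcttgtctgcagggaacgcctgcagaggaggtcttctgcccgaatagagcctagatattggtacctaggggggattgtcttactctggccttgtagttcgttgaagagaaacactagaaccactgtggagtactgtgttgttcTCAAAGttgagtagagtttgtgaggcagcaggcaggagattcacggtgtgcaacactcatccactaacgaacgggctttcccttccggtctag
Klf2: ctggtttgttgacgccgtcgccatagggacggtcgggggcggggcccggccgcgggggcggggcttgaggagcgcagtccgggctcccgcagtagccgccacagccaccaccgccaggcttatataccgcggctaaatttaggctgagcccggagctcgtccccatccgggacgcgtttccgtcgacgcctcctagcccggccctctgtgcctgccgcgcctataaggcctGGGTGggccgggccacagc
Dapl1: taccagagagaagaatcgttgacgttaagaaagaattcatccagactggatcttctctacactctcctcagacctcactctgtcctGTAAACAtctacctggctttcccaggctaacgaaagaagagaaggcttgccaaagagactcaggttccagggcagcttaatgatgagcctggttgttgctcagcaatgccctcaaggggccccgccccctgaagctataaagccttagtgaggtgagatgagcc
The Lef1 stretch held KLF letters at -200, -157 and -75 from the start and an E-box at -10. The Bach2 stretch held 1 TCF/LEF match at -93, the Klf2 stretch 1 KLF match at -19 and the Dapl1 stretch 1 forkhead match at -164. The Bach2 stretch lies before an internal start site, well inside the gene (chr4:32238804-32586108), and no other Bach2 promoter was at hand. Of the 18 promoters, 3 held TCF/LEF letters (in Lef1, Bach2 and Foxp1), 1 held forkhead letters (in Dapl1), 14 held KLF letters and 10 an E-box, while 0 held AP-1 letters. Among 32851 promoters of the same length, 13.8% held the TCF/LEF letters, 3.17% the forkhead letters, 52.0% the KLF letters, 66.2% an E-box and 6.75% the AP-1 letters. These matches describe the letters only, and some windows of a gene overlap each other.

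The total count was between 5186728 and 6634583 per library in SP- and Ischemia-Tregs and between 15628261 and 16388161 in iB-Tregs. In these 4 libraries the counts stand up to 19 rows below their gene ID in the part of the table used, and they were read from the row they belong to. Tcf7 and Id3 lay in rows that needed no move, 6 genes were moved by 1 row and Klf2 by 2 rows. In windows of 101 rows around each gene, log2 counts of these 4 libraries followed those from iB-Tregs with r between 0.866 and 0.947 at the offset used and at most 0.316 at any other, as a description across genes. Mitochondrial rRNA took 13.6 to 15.7% of the counts in the SP- and Ischemia-Treg libraries and 0.121 to 0.169% in the iB-Treg libraries. Foxp3, the Treg transcription factor whose reporter was used for isolation, was present in all libraries, at 700.5 to 728.9 CPM (counts relative to the TMM-scaled library size) in SP-Tregs, 795.7 to 841.1 in Ischemia-Tregs, 294.7 to 296.1 in iB-Treg (A) and 239.9 to 246.0 in iB-Treg (B) and (C). The summed level of 17 microglia and macrophage markers was 60.2 to 70.5 CPM in SP-Tregs, 136 to 169 in Ischemia-Tregs, 5099 to 5311 in iB-Treg (A), 9201 to 9228 in (B) and 8160 to 8629 in (C). P2ry12, Trem2, Tyrobp and Fcrls of this list were at 0 in SP-Tregs and Adgre1 in Ischemia-Tregs. For 18 astrocyte markers the sum was 539 to 626 CPM in SP-Tregs, 1659 to 1665 in Ischemia-Tregs and 5288 to 8704 in the iB-Treg groups, where Apoe made up most of it and Gjb6 was at 0. In SP-Tregs, 11 of these 18 markers were at 0, among them Aqp4, Slc1a2 and Slc1a3. In Ischemia-Tregs, 10 were at 0, among them Gfap, Aldh1l1 and Sox9. Of 13 astrocyte markers tested there against SP-Tregs, 4 were called higher, 1 lower and 8 were not called. B cell markers summed to 556 to 666 CPM in SP-Tregs, 395 to 398 in Ischemia-Tregs and 227 to 265 in iB-Tregs, with Ms4a1 and Blk at 0 in every iB-Treg group. These levels move with the groups compared, and their part in the results was not tested. Values scaled to T cell genes are given beside many of the results.

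**Figure D1:**
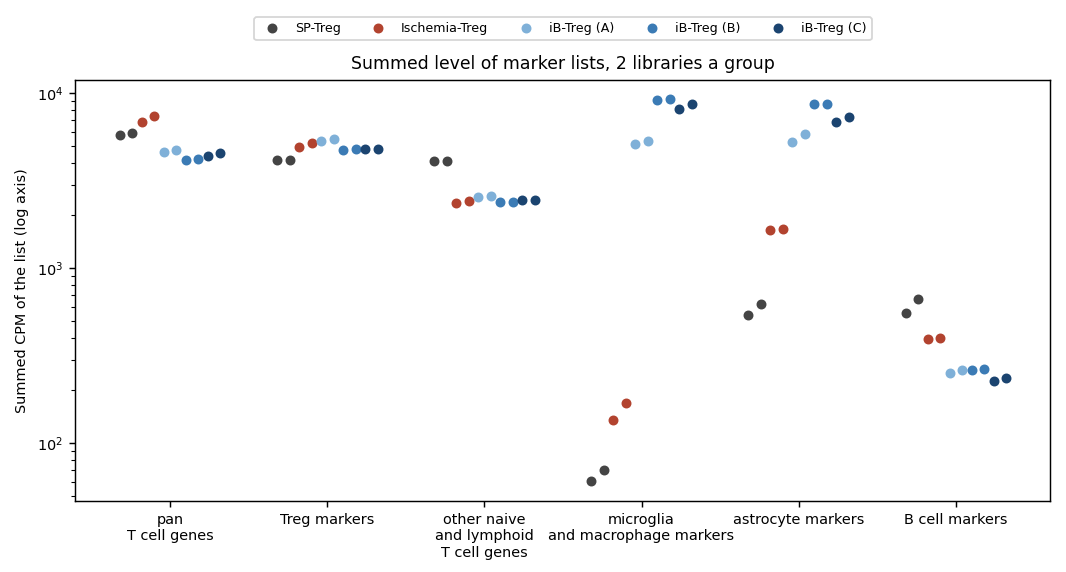
Summed TMM-scaled CPM of 6 gene lists (vertical log axis) in each library, 2 points per group, with colours for the 5 groups. Microglia and macrophage markers rise from 60.2 to 70.5 CPM in SP-Tregs to 9201 to 9228 in iB-Treg (B), while 15 pan T cell genes stay between 4174 and 7377.

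The 9 genes were lower in all co-cultured Tregs than in splenic Tregs, and 8 of them were lower in Tregs of the ischemic brain as well. In Ischemia-Tregs, 8 genes fell and Klf2 rose against SP-Tregs (edgeR, Benjamini-Hochberg adjusted p under 0.05), where 38.7% of 13000 genes were called, 20.4% as higher and 18.3% as lower. Beside this, 11 of 17 microglia and macrophage markers were higher. The 9 genes had a median log2 fold change of -1.20 here, beside a median of 0.00 over all genes. Against SP-Tregs, all 9 fell in iB-Treg (A), where 72.8% of genes were called, 40.0% as higher and 32.7% as lower, with a median of -2.17 beside 0.14 over all genes. All 9 fell in iB-Treg (B), where 72.3% were called, 39.6% as higher and 32.7% as lower, with a median of -2.44 beside 0.13. All 9 fell in iB-Treg (C) too, where 71.6% were called, 39.3% as higher and 32.2% as lower, with a median of -2.44 beside 0.14. The libraries of the groups compared did not overlap for any of the 9 genes in these 4 comparisons. The share of all genes without overlap was not computed, so this adds little to the calls. In iB-Treg (C) against (B), where 0 of the 9 were called, 7 did not overlap either. In such bulk samples, fewer cells of a type and less RNA per cell cannot be told apart. For flow cytometry, the paper describes brains digested with collagenase and DNase while warm, a step it does not give for spleens. Whether the sequenced brain Tregs were prepared likewise is not stated there. Tissue and handling thus cannot be told apart in comparisons with Ischemia-Tregs. The 4 comparisons share the SP-Treg libraries.

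**Figure D2:**
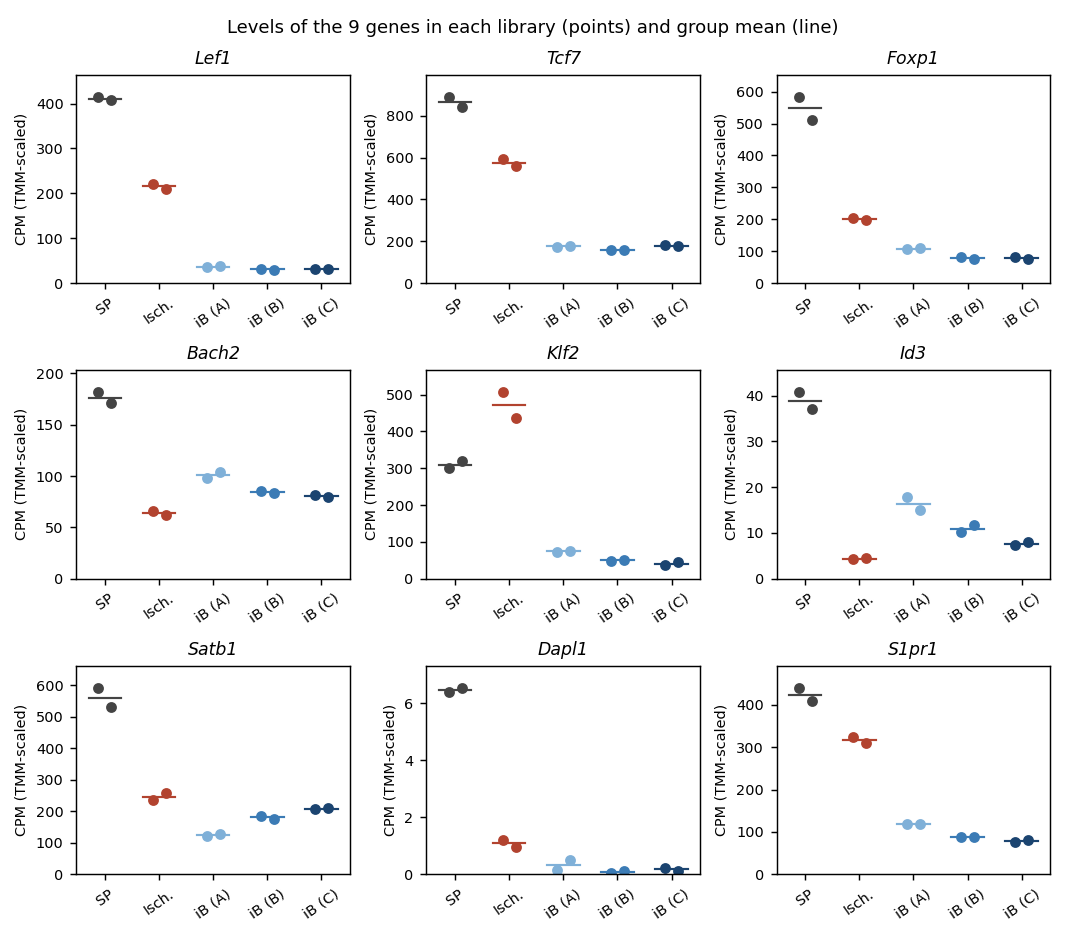
TMM-scaled CPM (vertical linear axis from 0, its own range per gene) of the 9 genes in the 10 libraries, with 2 points per group and a line at the group mean. SP-Treg points are the highest for 8 genes, Klf2 is highest in Ischemia-Tregs at 436 and 506 CPM, and Bach2 and Id3 are lowest in Ischemia-Tregs.

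Per kilobase of exon, Tcf7 was the most abundant of the 9 transcripts in splenic Tregs, at 286.5 ± 11.8 CPM per kb (SD, n = 2). Klf2 followed at 168 ± 7.82 and S1pr1 at 139 ± 7.34 CPM per kb. The others lay between 46.8 ± 0.638 for Lef1 and 9.51 ± 0.163 CPM per kb for Dapl1. In iB-Treg (B), Tcf7 was still the highest of the 9, at 52.9 ± 0.404 CPM per kb. Lef1 stood at 3.48 ± 0.0602 CPM per kb there, below Satb1 (9.48), Bach2 (8.49), Id3 (6.08) and Foxp1 (5.73), all of which it exceeded in splenic Tregs. These levels rest on the deposited exon length of each gene.

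The 2 HMG box factors fell together, and further in co-culture than in the brain. Lef1 (chr3:131110471-131224356, plus strand, GRCm38) was measured at 415 and 407 CPM in SP-Tregs, then 222 and 209 in Ischemia-Tregs, 36.2 and 37.2 in iB-Treg (A), 30.9 and 30.2 in (B) and 30.9 and 31.7 in (C). The SP-Treg libraries were thus highest, the Ischemia-Treg libraries intermediate and all co-cultured libraries far below both, with iB-Treg (B) and (C) overlapping. Against SP-Tregs the log2 fold change of Lef1 was -0.93 ± 0.07 (SE) in Ischemia-Tregs (adjusted p = 3.19e-08) and -3.48 ± 0.08 in iB-Treg (A) (adjusted p = 7.09e-16), an 11.2-fold lower level. It was -3.75 ± 0.08 in iB-Treg (B) and -3.72 ± 0.08 in iB-Treg (C). Tcf7 (chr11:52252371-52283014, minus strand) was at 890 and 840 CPM in SP-Tregs, then 593 and 558 in Ischemia-Tregs, 174 and 176.5 in iB-Treg (A), 159 and 161 in (B) and 181.5 and 176 in (C). SP-Tregs were again highest and Ischemia-Tregs next, while among the co-cultures (A) and (C) overlapped and (B) lay slightly below both, by differences that were not called. The log2 fold change of Tcf7 was -0.59 ± 0.06 in Ischemia-Tregs (adjusted p = 2.17e-06) and -2.30 ± 0.07 in iB-Treg (A) (adjusted p = 1.48e-14). For iB-Treg (B) and (C) it was -2.44 ± 0.07 and -2.28 ± 0.07.

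Foxp1 and Satb1 also fell in both settings, and they parted within the co-cultures. Foxp1 (chr6:98925338-99522721, minus strand) stood at 583.5 and 513 CPM in SP-Tregs, then 203 and 199 in Ischemia-Tregs, 106 and 110 in iB-Treg (A), 82.5 and 75.1 in (B) and 80.3 and 76.8 in (C). Each step from SP- to Ischemia-Tregs, to iB-Treg (A) and to (B) was free of overlap, while (B) and (C) overlapped. Its log2 fold change against SP-Tregs was -1.45 ± 0.08 in Ischemia-Tregs (adjusted p = 5.27e-10), -2.35 ± 0.08 in iB-Treg (A) (adjusted p = 1.02e-13) and -2.80 ± 0.08 in both (B) and (C). Satb1 (chr17:51736187-51833290, minus strand) was at 592 and 530.5 CPM in SP-Tregs, then 234.5 and 257 in Ischemia-Tregs, 122 and 127 in iB-Treg (A), 184 and 176.5 in (B) and 206 and 210 in (C). Here iB-Treg (A) held the lowest level of all groups, and the libraries of (B) and (C) lay between (A) and the ischemic brain. Against SP-Tregs, the log2 fold change of Satb1 was -1.20 ± 0.08 in Ischemia-Tregs (adjusted p = 2.7e-09) and -2.17 ± 0.07 in iB-Treg (A) (adjusted p = 1.39e-13). The fall was smaller in (B), at -1.64 ± 0.07, and in (C), at -1.43 ± 0.07.

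Bach2 and Id3 differed from the 4 factors above in that they were lowest in the ischemic brain. Bach2 (chr4:32238804-32586108, plus strand) was measured at 181.5 and 171 CPM in SP-Tregs, then 66.3 and 62.3 in Ischemia-Tregs, 98.1 and 103.5 in iB-Treg (A), 85.4 and 83.5 in (B) and 81.5 and 79.3 in (C). Neither library of the ischemic brain reached the lowest co-cultured library, and (B) and (C) did not overlap but were not called different. Its log2 fold change against SP-Tregs was -1.45 ± 0.09 in Ischemia-Tregs (adjusted p = 2.34e-09), -0.81 ± 0.08 in iB-Treg (A) (adjusted p = 6.2e-08), -1.06 ± 0.08 in (B) and -1.14 ± 0.08 in (C). Id3 (chr4:136143497-136145755, plus strand) was at 40.7 and 37.0 CPM in SP-Tregs, then 4.373 and 4.402 in Ischemia-Tregs, 17.8 and 14.9 in iB-Treg (A), 10.1 and 11.7 in (B) and 7.27 and 8.06 in (C). The order ran from SP-Tregs through (A), (B) and (C) down to the ischemic brain, with no overlap between neighbours, although the step from (B) to (C) did not pass the test. The fall of Id3 in Ischemia-Tregs was 8.87-fold (log2 fold change -3.15 ± 0.25, adjusted p = 3.74e-08), and it rested on 18 and 14 counts in the libraries Ischemia-4 and Ischemia-3. In iB-Treg (A), Id3 changed by -1.25 ± 0.16 on the log2 scale (adjusted p = 1.83e-06), in (B) by -1.84 ± 0.16 and in (C) by -2.35 ± 0.17.

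Klf2 and its target S1pr1 parted in the ischemic brain and fell together in co-culture. Klf2 (chr8:72319033-72321656, plus strand) was found at 299.9 and 320.4 CPM in SP-Tregs, then 506 and 436 in Ischemia-Tregs, 73.4 and 75.4 in iB-Treg (A), 49.2 and 51.6 in (B) and 38.1 and 43.9 in (C). Both ischemic libraries exceeded both splenic ones, and all co-cultured libraries lay below these, with (B) above (C) by a difference that was not called. Klf2 rose by 0.61 ± 0.09 on the log2 scale in Ischemia-Tregs (1.52-fold, adjusted p = 3.13e-05). This value lay between 0.49 and 0.71 when any one library was left out. Brain tissue and its handling cannot be told apart for this rise. Klf2 fell in iB-Treg (A), with a log2 fold change of -2.06 ± 0.09 (adjusted p = 2.23e-12), and the values in (B) and (C) were -2.62 ± 0.09 and -2.92 ± 0.09. S1pr1 (chr3:115710433-115715072, minus strand) was at 440 and 408.5 CPM in SP-Tregs, then 324 and 309 in Ischemia-Tregs, 119.2 and 118.5 in iB-Treg (A), 88.7 and 88.5 in (B) and 77.0 and 80.0 in (C). It stepped down from group to group without overlap, the last step from (B) to (C) not being called. The log2 fold change of S1pr1 was -0.42 ± 0.07 in Ischemia-Tregs (adjusted p = 0.000158), the smallest fall of the 9 genes there. In iB-Treg (A), (B) and (C) it was -1.84 ± 0.07, -2.26 ± 0.07 and -2.44 ± 0.07.

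Dapl1 was the least abundant of the 9 genes and came close to 0 in co-culture. Dapl1 (chr2:59484653-59505020, plus strand) had 32 and 23 counts in SP-Tregs, then 5 and 3 in Ischemia-Tregs, 3 and 9 in iB-Treg (A), 1 and 2 in (B) and 4 and 2 in (C), although the co-cultured libraries were the deepest. Both splenic libraries lay above all others, at 6.38 and 6.54 CPM, and the co-cultured groups ranged from 0.0561 to 0.499 CPM. Dapl1 fell in Ischemia-Tregs (log2 fold change -2.55 ± 0.62, adjusted p = 0.00392) and in iB-Treg (A) (-4.26 ± 0.55, adjusted p = 2.9e-06). Summed over both libraries, 3 counts in iB-Treg (B) came to 1.31% of the splenic level, with an exact (Clopper-Pearson) 95% interval of 0.262 to 4.03% that covers counting error only. For iB-Treg (C) the level was 2.67% (0.939 to 6.19%), for (A) 5.05% (2.46 to 9.55%) and for Ischemia-Tregs 17.0% (7.0 to 35.9%). At this depth, differences of Dapl1 among the co-cultured groups were not detectable.

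**Figure D3:**
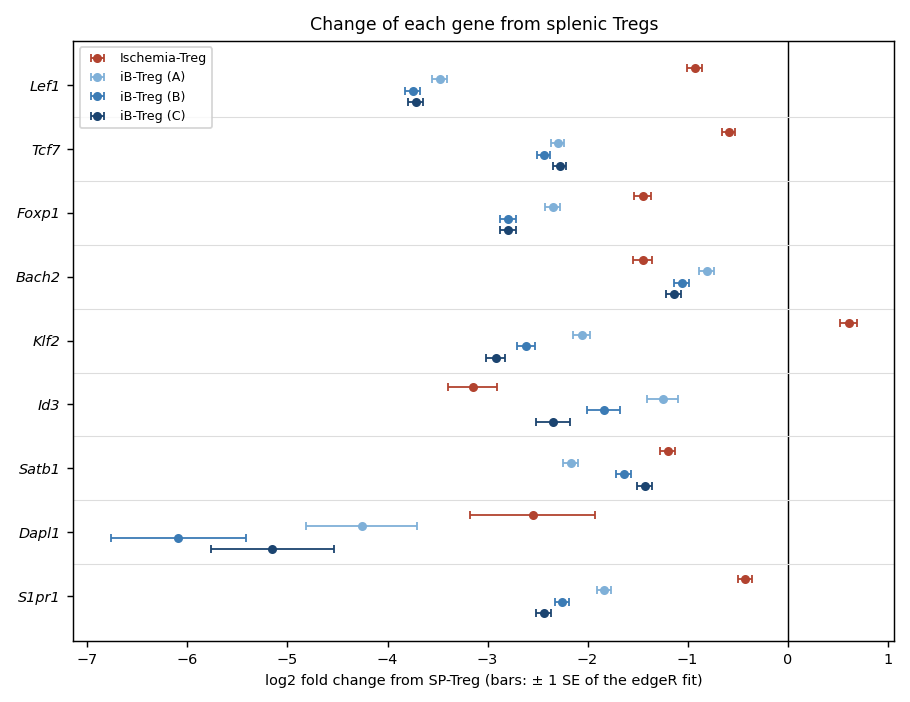
Log2 fold change from SP-Tregs (horizontal axis) of the 9 genes in Ischemia-Tregs and the 3 iB-Treg groups, with bars of 1 SE derived from the edgeR F statistic. Klf2 in Ischemia-Tregs, at 0.61, is the only point above 0, and Bach2 and Id3 are the genes whose Ischemia-Treg point lies to the left of all iB-Treg points.

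The co-cultured libraries held more glial transcripts, so the change from splenic Tregs was also computed with each library scaled to the summed counts of 15 pan T cell genes such as Cd3e and Lck. This sum was 5767 to 5943 CPM in SP-Tregs, 6857 to 7377 in Ischemia-Tregs, 4601 to 4757 in iB-Treg (A), 4174 to 4201 in (B) and 4382 to 4558 in (C). The scaling put the median of all genes at -0.24 in Ischemia-Tregs, 0.46 in iB-Treg (A), 0.60 in (B) and 0.52 in (C). All 9 genes remained lower in each iB-Treg group and the same 8 in Ischemia-Tregs. Over all genes, this scaling called 1538 as higher and 4255 as lower in Ischemia-Tregs. These counts were 6444 and 3084 in iB-Treg (A), 7178 and 2579 in (B) and 6726 and 2843 in (C). In iB-Treg (B), Lef1 was then at -3.27 (adjusted p = 3.4e-14), Foxp1 at -2.32 and Bach2, the gene that changed least, at -0.58 (adjusted p = 3.27e-05). Klf2 was at 0.33 in Ischemia-Tregs (adjusted p = 0.0138).

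Against the ischemic brain, co-cultured Tregs were lower in most of the 9 genes but higher in Bach2 and Id3. In iB-Treg (A), 2 genes were higher, 6 lower and Dapl1 was not called, where 70.0% of genes were called, 38.9% as higher and 31.1% as lower. In iB-Treg (B), 2 were higher and 7 lower, with 69.6% of genes called, 38.6% as higher and 31.0% as lower. In iB-Treg (C) the counts were also 2 and 7, with 68.9% of genes called, 38.0% as higher and 30.8% as lower. Klf2 was at -2.67 ± 0.09 in (A) (log2 fold change, adjusted p = 9.15e-14), -3.23 ± 0.09 in (B) (adjusted p = 1.17e-14) and -3.53 ± 0.09 in (C) (adjusted p = 5.21e-15). Lef1 was 5.87-fold lower in (A) and 7.06-fold lower in (B), with log2 fold changes of -2.55 ± 0.08 and -2.82 ± 0.08. Bach2 was higher by 0.65 ± 0.09 in (A) (adjusted p = 6.8e-06), 0.39 ± 0.09 in (B) (adjusted p = 0.00111) and 0.32 ± 0.09 in (C) (adjusted p = 0.0051). Id3 was higher by 1.90 ± 0.26 in (A) (adjusted p = 4.98e-06), 1.31 ± 0.27 in (B) (adjusted p = 0.000399) and 0.80 ± 0.28 in (C) (adjusted p = 0.019). Scaling to pan T cell genes put the median of all genes at 0.74 in (A), 0.90 in (B) and 0.81 in (C). Of the 9 genes, 2 were then higher and 6 lower in (A). The counts were 3 and 6 in (B) and 3 and 5 in (C). Over all genes, 7688 were then called as higher and 2210 as lower in (A). The counts over all genes were 8441 and 1802 in (B) and 8016 and 1949 in (C). With that scaling, the log2 fold change of Lef1 was -1.95 in (A), -2.06 in (B) and -2.12 in (C). That of Klf2 was -2.06, -2.47 and -2.86. Bach2 was at 1.25, 1.15 and 0.99, and Id3 at 2.49, 2.07 and 1.47. Satb1 was at -0.98 ± 0.08 in (A) (-0.38 with that scaling), but in (B), at -0.44, and in (C), at -0.24, it turned to 0.32 (adjusted p = 0.00274) and 0.43 (adjusted p = 0.000236). The call of Dapl1 in (C) was lost with that scaling (adjusted p = 0.0579) and without TMM (adjusted p = 0.0564), and that of Foxp1 in (A), at -0.90 ± 0.08, was lost without TMM (-0.17, adjusted p = 0.0868). In (C), the call of Id3 was lost without C-Treg2 (0.75), Ischemia-3 (0.82) or Ischemia-4 (0.81) and when only the 4 libraries compared were fitted (0.77, adjusted p = 0.0559), that of Satb1 without C-Treg1 (-0.21) or Ischemia-3 (-0.16), and that of Dapl1 without C-Treg2 (-2.21) or Ischemia-4 (-2.38). In (B), Dapl1 was not called without Ischemia-4 (-3.33), and in (A) it was called without A-Treg2 (-2.68).

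With IL-33 and serotonin added, most of the 9 genes were a little lower still, and Satb1 was higher. In iB-Treg (B) against (A), 6 genes fell, Satb1 rose and Tcf7 and Dapl1 were not called, where 16.5% of genes were called, 9.36% as higher and 7.14% as lower. The median log2 fold change of the 9 genes was -0.42 beside -0.01 over all genes. Microglia and macrophage markers rose at the same time in 12 of 17 cases. Satb1 rose by 0.54 ± 0.07 (adjusted p = 4.36e-05). Klf2 fell by 0.56 on the log2 scale (SE 0.09, adjusted p = 0.000218), Foxp1 by 0.45 (SE 0.08, adjusted p = 0.000492) and S1pr1 by 0.42 (SE 0.07, adjusted p = 0.000271). Id3 was at -0.59 ± 0.15 (adjusted p = 0.0119), Lef1 at -0.27 ± 0.08 (adjusted p = 0.0292) and Bach2 at -0.26 ± 0.07 (adjusted p = 0.0221). The calls of Lef1 and Bach2 were lost when A-Treg1, A-Treg2, B-Treg1 or B-Treg2 was left out, and that of Id3 without A-Treg1, B-Treg1 or B-Treg2, so that 4 or 5 calls were made. Lef1 was also not called with no filter on low counts (-0.26, adjusted p = 0.0565). Scaled to pan T cell genes, which put the median of all genes at 0.14, Satb1 rose by 0.70 and Klf2, Foxp1 and S1pr1 fell. Lef1 (adjusted p = 0.503), Bach2 (adjusted p = 0.518) and Id3 (adjusted p = 0.0641) were then not called. Over all genes, this scaling called 2053 as higher and 303 as lower. Tcf7 stood at -0.13 ± 0.06 (adjusted p = 0.19) and at 0.03 with that scaling.

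With all factors present, Id3 and Klf2 had the largest falls in fold among the genes called. In iB-Treg (C) against (A), 6 genes fell and Satb1 rose, where 20.0% of genes were called, 10.4% as higher and 9.58% as lower, with a median of -0.46 for the 9 genes beside 0.00 over all genes. Id3 fell 2.13-fold (log2 fold change -1.09 ± 0.16, adjusted p = 8.96e-05) and Klf2 1.81-fold (-0.86 ± 0.09, adjusted p = 2.61e-06). Satb1 rose 1.67-fold (0.74 ± 0.07, adjusted p = 1.03e-06). S1pr1 was at -0.60 ± 0.07 (adjusted p = 7.52e-06), Foxp1 at -0.46 ± 0.08 (adjusted p = 0.000411), Bach2 at -0.33 ± 0.07 (adjusted p = 0.00396) and Lef1 at -0.23 ± 0.08 (adjusted p = 0.0496). The Lef1 call was lost when A-Treg1, A-Treg2, C-Treg1 or C-Treg2 was left out and with the scaling to pan T cell genes (-0.17, adjusted p = 0.273), to protein-coding genes (-0.22, adjusted p = 0.0619) or with no filter on low counts (-0.23, adjusted p = 0.11), and the Bach2 call without A-Treg2 (-0.29) or C-Treg2 (-0.29) and with that scaling (-0.26, adjusted p = 0.0569). Both comparisons use the iB-Treg (A) libraries.

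**Figure D4:**
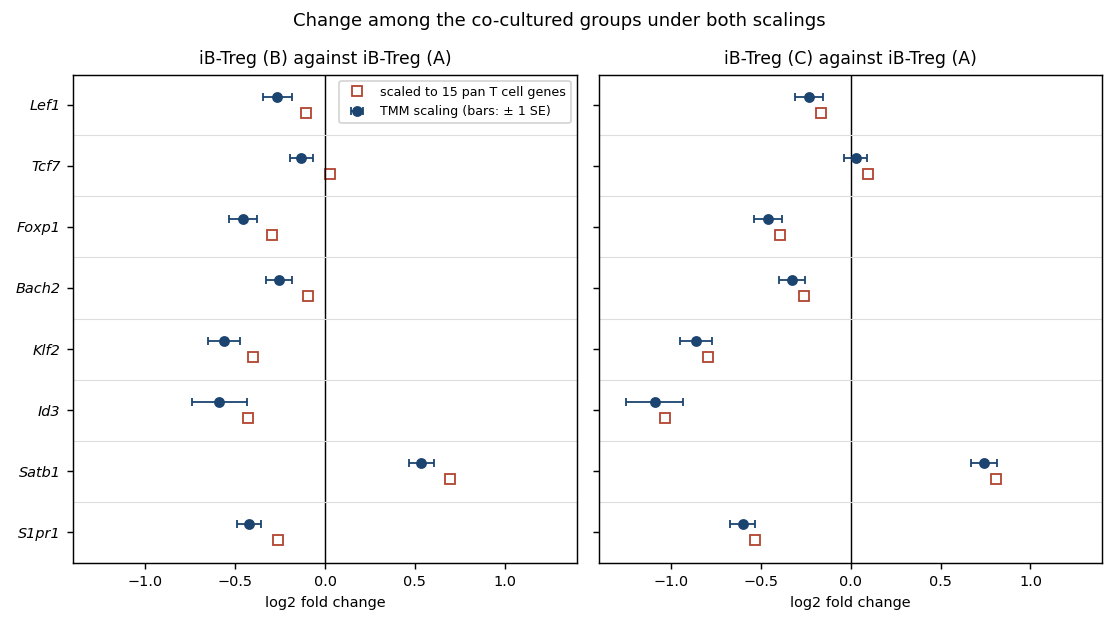
Log2 fold change (horizontal axis) of 8 of the 9 genes (Dapl1 has too few counts) in iB-Treg (B) and (C) against (A), with TMM scaling (filled points, bars of 1 SE) and with scaling to 15 pan T cell genes (open squares). Satb1 lies above 0 under both scalings in both panels, and Tcf7 lies close to 0.

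Whether the 9 genes differed once CCL1 and CCL20 were added depended on the fit. In iB-Treg (C) against (B), edgeR with all libraries called 0 of 9 at the adjusted threshold, where 0.162% of genes were called, 0.0462% as higher and 0.115% as lower, and DESeq2 also called 0. At an unadjusted p under 0.05, 5 genes passed (Tcf7, Id3, Satb1, S1pr1 and Klf2). The share of all genes at that threshold was not computed, so these 5 genes have no background beside them. The largest fitted values among these were -0.51 ± 0.16 for Id3 (adjusted p = 0.436) and -0.30 ± 0.09 for Klf2 (adjusted p = 0.364). Satb1 was at 0.21 ± 0.07 (adjusted p = 0.48). When only the 4 libraries of these groups were fitted, these 5 genes were called. That fit called 849 genes in all, 354 as higher and 495 as lower, beside 21 in the fit of all libraries. Its number of genes tested was not recorded, so no share is given. Satb1 at 0.20 (adjusted p = 0.00201) and Tcf7 at 0.16 (adjusted p = 0.0182) were higher in it. Klf2 at -0.30 (adjusted p = 0.00641), Id3 at -0.51 (adjusted p = 0.0186) and S1pr1 at -0.18 (adjusted p = 0.0335) were lower.

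Partners and targets of TCF-1 and LEF1 were mostly lower in co-culture. Of 14 such genes tested, 4 rose and 9 fell in iB-Treg (A) against SP-Tregs (4 and 8 with scaling to pan T cell genes), with a median log2 fold change of -0.93. Over all genes, 40.0% were called higher and 32.7% lower there, 20.4% and 18.3% in Ischemia-Tregs, and 9.36% and 7.14% in (B) against (A). Counts over all genes with scaling to pan T cell genes are given above. Rnf43, a membrane ubiquitin ligase that dampens Wnt signals, fell from 88.4 to 4.57 CPM (-4.26 ± 0.18, adjusted p = 1.48e-12). Axin2, a classical target of β-catenin with TCF/LEF, fell from 74.0 to 8.08 CPM (-3.20 ± 0.15, adjusted p = 5.51e-12), and the corepressor Tle4 from 109 to 27.4 CPM (-1.99 ± 0.10, adjusted p = 1.1e-11). Ccnd1, which encodes cyclin D1, was at 0 in SP-Tregs and at 71.7 CPM in iB-Treg (A). In the same comparison, 17 of 17 microglia and macrophage markers rose, and which cells the Ccnd1 transcripts came from was not tested. In Ischemia-Tregs, 2 of these genes rose and 5 fell (1 and 9 with that scaling), with a median of -0.36, and Myc was at -0.82 ± 0.11 (adjusted p = 1.32e-05) and Znrf3 at -0.78 ± 0.14 (adjusted p = 0.000297). In iB-Treg (B) against (A), 2 rose, 1 fell and 11 were not called.

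Other genes of naive and lymphoid T cells mostly fell too. Of 21 tested, 13 fell and 3 rose in Ischemia-Tregs, 15 fell and 3 rose in iB-Treg (A), and 17 fell and 3 rose in (B) and in (C), always against SP-Tregs. With scaling to pan T cell genes, 16 fell in Ischemia-Tregs, 14 in (A), 14 in (B) and 13 in (C). Over all genes with TMM scaling, 18.3% were called lower and 20.4% higher in Ischemia-Tregs. These shares were 32.7% and 40.0% in (A), 32.7% and 39.6% in (B) and 32.2% and 39.3% in (C). In (B) against (A) they were 7.14% and 9.36%. In Ischemia-Tregs, Igfbp4 fell from 164 to 11.5 CPM (-3.91 ± 0.20, adjusted p = 1.21e-10), Gpr83 from 112 to 14.3 CPM and Actn1 from 290 to 74.5 CPM. In iB-Treg (A), Rflnb fell from 74.1 to 0.760 CPM, Nsg2 from 210 to 12.9 CPM and Actn1 to 65.5 CPM. Treml2 rose there from 4.17 to 375 CPM (6.51 ± 0.14, adjusted p = 6.06e-16). Microglia and macrophage markers also rose, in 17 of 17 cases, and which cells the Treml2 transcripts came from was not tested. Between iB-Treg (B) and (A), 3 rose and 7 fell (4 and 3 with that scaling), among them Gpr83 (-0.77 ± 0.09, adjusted p = 9.09e-06) as a fall and Il7r, the IL-7 receptor chain (0.80 ± 0.12, adjusted p = 9.8e-05), as a rise.

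Factors tied to BACH2 or to effector Tregs were higher in the ischemic brain in 16 of 16 cases (14 with scaling to pan T cell genes). Their median log2 fold change was 1.39. The list also holds Mafg, Mafk and Bcl6, so not all of these genes oppose BACH2. Fosl2, an AP-1 subunit, rose from 6.66 to 1017 CPM (7.25 ± 0.12, adjusted p = 4.63e-17), Junb from 139 to 3915 CPM, Jun from 21.8 to 502 CPM and Nfil3 from 11.5 to 170.5 CPM. Over all genes, 20.4% were called higher and 18.3% lower in Ischemia-Tregs, 40.0% and 32.7% in iB-Treg (A), and 9.36% and 7.14% in (B) against (A). In iB-Treg (A) against SP-Tregs, 8 of the 16 rose and 6 fell, and Fosl2 reached 195 CPM and Jun 311 CPM. In iB-Treg (B) against (A), 9 rose and 3 fell (12 rose with that scaling), with Maf at 1.14 ± 0.07 (adjusted p = 4.74e-09), Fosl2 at 0.93 ± 0.07 (adjusted p = 1.85e-08), Rora at 1.05 ± 0.09 and Ahr at 1.01 ± 0.09. Among 6 E proteins and other ID proteins, Id2 was the gene that rose in Ischemia-Tregs, from 36.5 to 262 CPM (2.88 ± 0.12, adjusted p = 1.32e-11), where its relative Id3 was at its lowest. Id2 rose by 1.00 ± 0.13 in iB-Treg (A) against SP-Tregs (adjusted p = 1.8e-06) and by 0.65 ± 0.09 in (B) against (A) (adjusted p = 8.2e-05). Against SP-Tregs, 17 of 17 microglia and macrophage markers rose in iB-Treg (A). In (B) against (A), 12 of these markers rose and 1 fell, with a median of 0.96. Their part in the values of this paragraph was not tested. The part of tissue handling in the rises in Ischemia-Tregs, here and in the next paragraph, was not tested either.

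Genes of homing and egress followed no single direction beside Klf2 and S1pr1. In Ischemia-Tregs, 6 of 17 rose and 4 fell (5 and 9 with scaling to pan T cell genes). Among them, Klf6 rose from 205 to 1382 CPM, Cxcr4 from 46.4 to 581 CPM (3.69 ± 0.13, adjusted p = 8.73e-13), Rgs1 from 214 to 642 CPM and Cd69, whose product removes S1PR1 from the cell surface, from 91.9 to 437 CPM (2.26 ± 0.09, adjusted p = 2.94e-12). In iB-Treg (A) against SP-Tregs, 6 rose and 8 fell (8 and 7 with that scaling), among the latter Klf3 from 425 to 52.2 CPM (-3.03 ± 0.09, adjusted p = 2.23e-14), Foxo1, a forkhead activator of Klf2, from 427 to 150.3 CPM (-1.51 ± 0.08, adjusted p = 1.62e-11) and the integrin chains Itga4 and Itgal. Sgpl1, which encodes the lyase that breaks down sphingosine 1-phosphate, rose by 0.73 ± 0.06 in (B) against (A) (adjusted p = 1.8e-07), where 3 of the 17 rose and 2 fell (7 and 1 with that scaling). Of 11 quiescence regulators, 5 rose and 3 fell in Ischemia-Tregs (4 and 4 with that scaling) and 2 rose and 7 fell in iB-Treg (A) (4 and 6). Btg2, an antiproliferative gene, went from 162 CPM in SP-Tregs to 573 in Ischemia-Tregs (1.83 ± 0.07, adjusted p = 6.11e-12) and 33.9 in iB-Treg (A) (-2.25 ± 0.08, adjusted p = 2.17e-13). Pik3ip1, an inhibitor of PI3 kinase, fell in both, from 89.0 to 21.7 and 13.7 CPM. Of 18 tested paralogs of the 9 genes, 5 rose and 13 were not called in Ischemia-Tregs (4 rose and 6 fell with scaling to pan T cell genes), with Klf4 up from 3.66 to 77.1 CPM and Klf10 from 27.5 to 71.8 CPM, while 7 rose and 4 fell in iB-Treg (A) (9 and 2 with that scaling).

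The profiles of the 9 genes over the 10 libraries fell into unlike shapes. Log2 CPM of Lef1 and Tcf7 correlated with r = 0.998 and Lef1 with S1pr1 at 0.988, whereas Bach2 and Id3 correlated with each other at 0.971 but with Lef1 at 0.452 and 0.298. Klf2 and Id3 were the least alike, at 0.047. Among 9310 other genes of at least 10 CPM in their highest group, those most like the mean profile of the 9 were Aff3 (r = 0.996), Ablim1 (0.996), Il17ra (0.995), Il16 (0.995) and Klf3 (0.995). Aff3 went from 246.5 CPM in SP-Tregs to 98.2 in Ischemia-Tregs and 54.7, 42.0 and 40.7 in iB-Treg (A), (B) and (C), and Il16 from 600.5 to 267, 142, 110.3 and 117 CPM. These values describe 10 libraries that share scaling and group structure, and most of the variation lies between groups.

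**Figure D5:**
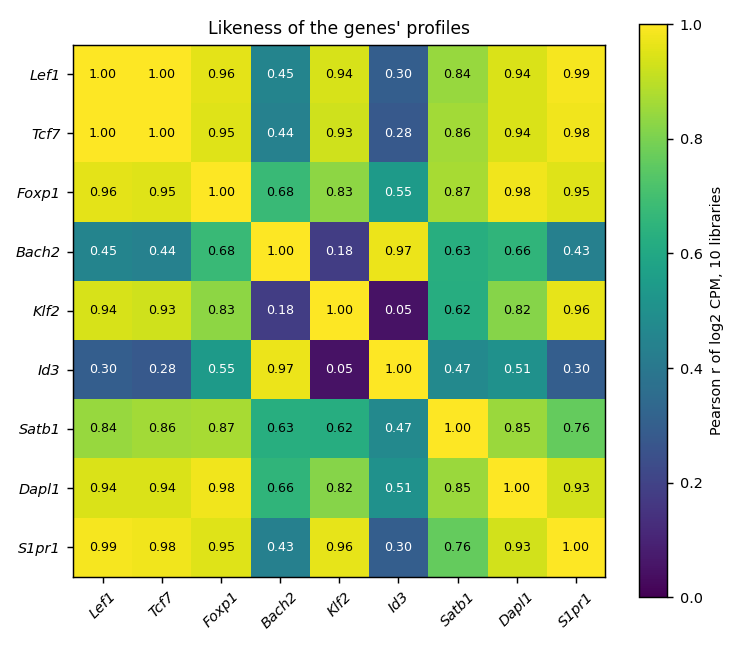
Pearson r of log2 CPM over the 10 libraries for each pair of the 9 genes (both axes list the genes, colour and printed value give r). Lef1, Tcf7 and S1pr1 form a block with r of 0.979 to 0.998, and Bach2 and Id3 stand apart from it while reaching 0.971 with each other.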

How the data were processed

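RNA-seq counts of 10 libraries (5 groups, 2 libraries each) were analysed for mouse Tregs. The authors deposited raw counts per gene, neither normalized nor pooled, beside the exonic length of each gene in bases as a whole-number value (other than a count). The paper names HISAT2 and featureCounts with GRCm38, whereas the submitters' notes name HISAT2 2.0.1 and HTSeq 0.6.1. The library kit keeps strand. Which strand setting was used for counting is not given in the sources used here. In the SP- and Ischemia-Treg columns, counts stand 0 to 19 rows below their gene ID, in 6 stretches with a fixed offset, and were read from there; 24994 of 55401 IDs lie in these stretches and were used. The column names of these 4 libraries give the group but no replicate number. Gene symbols and coordinates came from GENCODE vM21, promoters from RefSeq.

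The members and all gene lists were chosen with earlier results of these data known. The main test was edgeR 4.0.16 under R 4.3.3 (filterByExpr, TMM, quasi-likelihood F test, one fit of all libraries, 13000 genes) with calls at a Benjamini-Hochberg adjusted p below 0.05 in 10 comparisons. CPM used the TMM-scaled totals of the used rows. The SE of a log2 fold change was taken as its size over the square root of the F statistic, so it holds no information beyond that test. Genes outside the 9 were named by smallest adjusted p (up to 4 per list and comparison) or by likeness of profile. Replicates of a group differed by more than counting noise (chi-square per degree of freedom 1.63 to 5.60). Alternatives were DESeq2 1.42.0, other scalings and filters, fewer libraries, a replicate block and a fit of only the genes in rows that need no move. Only the main edgeR test was run on simulated data, for some of the comparisons and with the same spread for all genes and groups. The alternatives and the moved rows were not simulated. Total counts of 5186728 to 16388161 per library set the precision. One gene of the lists is counted but not reported here by name.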

Additional observations from a re-analysis of the deposited data

How the results depend on the processing

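Of the single-gene fold changes recomputed under the alternatives, 1068 kept the call, 37 lost it, 8 gained it and 4 reversed. A reversal was counted only where at least 1 of the 2 fits called the gene. The 1068 thus include changes of sign in genes that neither fit called, such as Tcf7 in iB-Treg (B) against (A). The reversals were Satb1 against Ischemia-Tregs, at 0.23 in iB-Treg (B) and 0.42 in (C) without TMM and at 0.32 and 0.43 with scaling to pan T cell genes. Members called in iB-Treg (B) against (A) were 4 with pan T cell scaling and 4 to 5 with 1 library left out. In (C) against (B), 5 members were called when only the 4 libraries compared were fitted and 2 (Klf2 and Satb1) with a replicate block, which was fitted to the iB-Treg libraries only. All genes called numbered 2985 for Ischemia- against SP-Tregs with only 4 libraries fitted. For (B) against (A) they were 4170 with 4 libraries, 3914 with the replicate block and 889 to 1167 with 1 library left out, beside 2145. For (C) against (A) they were 4451, 4569 and 1144 to 1380, beside 2598. For (C) against (B) they were 36 with pan T cell scaling, 130 with no filter, 82 with DESeq2, 849 with 4 libraries, 470 with the block and 0 to 3 with 1 library left out, beside 21. The cause was not tested. Replicate numbers did not pair the iB-Treg libraries (r of the deviations 0.097, -0.13 and 0.032), so the block is given only here. As the block fit also left out the SP- and Ischemia-Treg libraries, the effects of both changes cannot be told apart. Higher genes made up 54.8 to 55.6% of calls in iB-Tregs against SP- or Ischemia-Tregs, 73.4 to 80.7% without TMM and 67.6 to 82.4% with pan T cell scaling. Without TMM they made up 34.2% for Ischemia- against SP-Tregs (52.8% with TMM, 26.5% with pan T cell scaling). For (B) against (A) the share went from 56.7% to 42.9% and 87.1%, for (C) against (A) from 52.0% to 37.7% and 68.2%, and for (C) against (B) from 28.6% to 5.56% with pan T cell scaling. When only genes in rows that need no move were fitted, Tcf7 and Id3 kept every direction and call. Their counts are the same in both fits, so this does not test the moved rows. With 2 libraries a group and few counts, Dapl1 and Id3 limit what can be said of small differences.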
